A study of Mus musculus with 10 samples.

Results

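The genes of interleukin-6 (IL-6) family signalling were followed in bulk RNA-seq of mouse livers with or without hepatocyte Bap1 depletion, after carbon tetrachloride (CCl4) or vehicle. The 9 genes were taken by name, with earlier results of these data known: the cytokines Il6, Osm and Lif, the receptors Il6ra, Osmr and Lifr, the shared receptor chain Il6st, the transcription factor Stat3 and the feedback inhibitor Socs3. They are 9 of the 55291 genes in the count table, and all 9 were among the 17015 genes tested. Il6, Osm and Lif reached the filter on low counts, 0.228 CPM (counts scaled to library size), in no vehicle liver and in 3, 6 and 6 of the CCl4 livers. For these 3 genes a difference between treatments followed in part from passing the filter.

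All mice were female Cas9 Lox-Stop-Lox animals of 16 to 20 weeks that received an AAV8 virus carrying a guide RNA and Cre recombinase under the thyroxine-binding globulin (TBG) promoter, which is active in hepatocytes. Control mice carried a non-targeting guide (NTC) and the others a guide against Bap1 (sgBap1), so Cas9, virus and Cre were shared by all groups. At 10 days after the virus, mice were injected with CCl4 in olive oil, a toxin that kills the hepatocytes around central veins, or with olive oil alone (vehicle, Veh), and livers were taken 48 h later. Vehicle groups had 2 livers per genotype and CCl4 groups 3 per genotype, 10 in all, and RNA came from the right lobe. The labels do not say that each library is a separate mouse, so p-values measure the spread between these libraries.

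IL-6 family cytokines each bind a receptor chain of their own and share the signalling chain gp130, the product of Il6st. IL-6 uses IL6RA, oncostatin M (Osm) uses OSMR, which in the mouse is its main receptor, and leukaemia inhibitory factor (Lif) uses LIFR. Engaged gp130 activates Janus kinases, which phosphorylate STAT3. STAT3 drives the acute phase genes of the hepatocyte and also Socs3, whose protein binds gp130 and shuts the signal down. In the liver this pathway is known for the acute phase response and for its part in regeneration after injury.

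The promoters of 4 members are shown because they hold the motifs that were searched, and because the transcripts of these members were higher, on average, in CCl4 livers. Each sequence runs from 250 bases before to 50 after the start site (RefSeq, GRCm38.p6), and capitals mark a match to the STAT motif in Socs3, to an AP-1 type motif in Il6, Lif and Osmr, and to an NF-kB type motif in Il6.
Il6, chr5:30012864-30013163, plus strand: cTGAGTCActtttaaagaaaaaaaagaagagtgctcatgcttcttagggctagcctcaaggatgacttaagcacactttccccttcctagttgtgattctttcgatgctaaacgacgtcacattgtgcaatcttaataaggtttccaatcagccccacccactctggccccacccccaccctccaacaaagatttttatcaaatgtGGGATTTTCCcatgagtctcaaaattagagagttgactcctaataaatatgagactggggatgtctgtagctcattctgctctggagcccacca
Lif, chr11:4257318-4257617, plus strand: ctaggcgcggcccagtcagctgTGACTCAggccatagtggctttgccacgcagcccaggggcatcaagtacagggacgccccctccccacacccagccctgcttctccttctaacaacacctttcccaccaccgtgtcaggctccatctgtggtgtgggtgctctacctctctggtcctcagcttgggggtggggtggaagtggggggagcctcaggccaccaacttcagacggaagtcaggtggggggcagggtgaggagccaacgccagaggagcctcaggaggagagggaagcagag
Osmr, chr15:6874264-6874563, minus strand: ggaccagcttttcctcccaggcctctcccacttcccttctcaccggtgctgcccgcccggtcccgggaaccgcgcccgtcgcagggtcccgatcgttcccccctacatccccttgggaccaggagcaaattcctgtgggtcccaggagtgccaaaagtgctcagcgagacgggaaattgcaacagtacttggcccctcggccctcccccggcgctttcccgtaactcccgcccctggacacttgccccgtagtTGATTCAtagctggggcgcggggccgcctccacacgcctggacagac
Socs3, chr11:117969317-117969616, minus strand: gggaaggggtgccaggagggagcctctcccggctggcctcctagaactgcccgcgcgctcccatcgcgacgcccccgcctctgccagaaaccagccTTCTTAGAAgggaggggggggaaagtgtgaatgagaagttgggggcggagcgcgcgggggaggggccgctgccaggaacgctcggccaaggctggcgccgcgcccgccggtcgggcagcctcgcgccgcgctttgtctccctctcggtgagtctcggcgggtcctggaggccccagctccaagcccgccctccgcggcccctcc

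Of the 9 members, 8 had a promoter in the RefSeq table, and Osm had none. The STAT motif was searched on both strands as TTCNNNGAA, with 3 bases between TTC and GAA, or with 4 bases between them. Socs3 was the only member with a match, TTCTTAGAA at position -154 from its start site. Of 32851 promoters of this length, 8.3% held TTCNNNGAA and 6.95% held the form with 4 bases. An AP-1 type motif, TGANTCA, and an NF-kB type motif, GGGA and TTTCC with any base between, were added after the promoters had been seen. Il6 held TGAGTCA at -249 and GGGATTTTCC at -44, Lif held TGACTCA at -228, and Osmr held TGATTCA at 4. TGANTCA was present in 7.81% of all promoters and the NF-kB type motif in 0.411%. No 2 matches overlapped. None of the 4 motifs was found in the promoters of Il6ra, Lifr, Il6st or Stat3. A match describes the letters in this window and is not evidence of a bound site.

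Total estimated counts were 33047904 to 52199904 per library, at which 3 counts correspond to 0.0511 to 0.112 CPM, and replicates differed by more than sampling noise. Bap1 was lower in 5 of 5 sgBap1 livers than in any NTC liver: it was at 34.8 ± 0.0265 CPM (SD, n = 2) in NTC-Veh and 18.5 ± 1.35 (n = 2) in sgBap1-Veh, and at 30.4 ± 1.00 (n = 3) in NTC-CCl4 and 19.3 ± 2.43 (n = 3) in sgBap1-CCl4. Averaged over treatments the log2 fold change of Bap1 was -0.78 (SE 0.08, edgeR quasi-likelihood test, adjusted p = 0.00612). The summed hepatocyte markers, Alb among them, lay between 113918 and 161139 CPM in vehicle livers and between 66860 and 85884 CPM after CCl4. The sgBap1-CCl4 replicate 2 library stood apart in fat cell genes, with a summed level of 145 CPM for 5 markers and 36.4 CPM for Adipoq, where each of the other 9 libraries had 0 to 2 counts of Adipoq. No member's call changed without that library.

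Most members differed between CCl4 and vehicle in both genotypes, as did most tested genes. In NTC livers 7 of 9 members passed an adjusted p of 0.05 (edgeR, 53.9% of all tested genes passed), with Osm, Lif, Osmr, Il6st and Socs3 higher and Il6ra and Lifr lower. In sgBap1 livers 7 of 9 passed (57% of all tested genes), with Osm, Lif, Osmr, Il6st, Stat3 and Socs3 higher and Lifr lower. The share of genes higher was 27.4% in NTC and 29% in sgBap1, and the share lower was 26.6% and 28%. No member passed in any comparison of sgBap1 with NTC. The groups of livers did not overlap for 7 members in NTC (71.7% of all tested genes) and 8 in sgBap1 (72.2%). The counts of members for CCl4 against vehicle include Osm and Lif, which passed the filter on low counts through CCl4 livers alone. The 8 in sgBap1 also include Il6, which passed that filter in the same way. Its separation in sgBap1 rests on 1 and 0 counts with vehicle and 7, 14 and 4 after CCl4. The plot of the members' CPM in each liver shows the pattern.

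**Figure D1:**
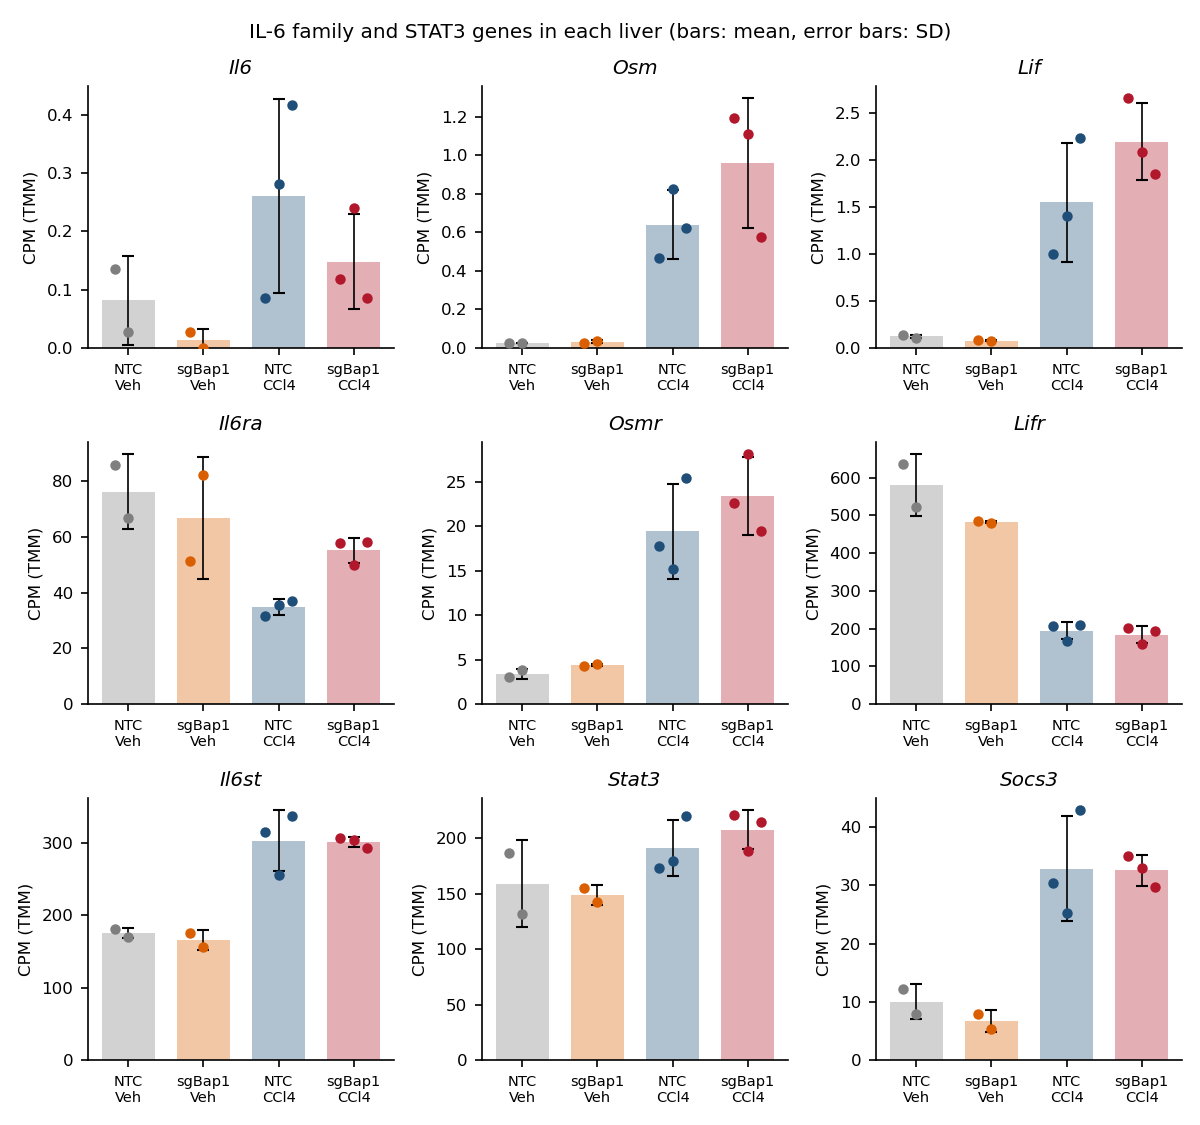
CPM on TMM-normalized library sizes (vertical axis, linear from 0, a different scale in each panel) of the 9 genes in each of the 10 livers by group, with points for livers, bars for group means and error bars for SD. Osm, Lif, Osmr, Il6st and Socs3 were higher in all 6 CCl4 livers than in the 4 vehicle livers, and Lifr was lower in all 6.

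Among the cytokines, Il6 itself was close to the limit of counting. The NTC-Veh libraries held 5 and 1 counts of Il6, the sgBap1-Veh libraries 1 and 0, the NTC-CCl4 libraries 4, 15 and 16, and the sgBap1-CCl4 libraries 7, 14 and 4. The NTC groups overlapped. On summed counts the ratio of NTC-CCl4 to NTC-Veh was 3.07 (95% interval 1.28 to 8.92, counting error only), and of sgBap1-CCl4 to sgBap1-Veh 9.73 (1.59 to 399). Il6 passed in neither genotype, with adjusted p = 0.134 in NTC and 0.0834 in sgBap1 (edgeR). It reached the filter on low counts through CCl4 livers alone, so its test was not independent of the filter. Without NTC-CCl4 replicate 1, which held 4 counts, the adjusted p of Il6 in NTC was 0.0445, and with library size alone in place of TMM it was 0.0403 in sgBap1.

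Osm, made mainly by macrophages, neutrophils and T cells, was near 0 with vehicle and present in every CCl4 liver. Each of the 4 vehicle libraries held 1 count of Osm. The NTC-CCl4 libraries held 22, 44 and 24 counts, or 0.469, 0.827 and 0.625 CPM. The sgBap1-CCl4 libraries held 70, 65 and 27 counts, or 1.19, 1.11 and 0.574 CPM. Treated and vehicle groups did not overlap in either genotype. The ratio of Osm on summed counts was 23.6 (95% counting interval 6.36 to 198) in NTC and 31.5 (8.58 to 262) in sgBap1, with adjusted p = 0.000140 and 3.95e-05 (edgeR). Osm passed the filter on low counts through CCl4 livers alone, so this test was not independent of the filter.

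Lif, a cytokine of many stromal and immune cells, followed the same course. Vehicle libraries held 5 and 4 counts of Lif in NTC and 3 and 2 in sgBap1. After CCl4 there were 47, 75 and 86 counts in NTC, or 1.00, 1.41 and 2.24 CPM, and 156, 122 and 87 in sgBap1, or 2.66, 2.09 and 1.85 CPM. Every CCl4 liver lay above every vehicle liver. The ratio of Lif on summed counts was 12.1 (95% counting interval 6.28 to 26.9) in NTC and 28.4 (12.1 to 88.0) in sgBap1, with adjusted p = 0.000193 and 4.63e-05 (edgeR). Lif, like Osm, passed the filter on low counts through CCl4 livers alone, so its test was not independent of the filter. Osm and Lif are neighbours on chromosome 11, 16530 bases apart with no annotated gene between them.

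The summed markers of monocytes, neutrophils, macrophages and stellate cells were higher in the same livers as Osm and Lif, while those of T and NK cells overlapped between treatments. Over all tested genes, 27.4% were called higher after CCl4 in NTC and 29% in sgBap1. All 4 monocyte markers were higher after CCl4 in each genotype, and their sum went from 4.66 to 8.20 CPM in vehicle livers to 91.1 to 131 CPM in CCl4 livers. All 5 tested neutrophil markers of 6 listed were higher, with sums of 5.76 to 12.0 CPM and 27.9 to 39.1 CPM, while Ly6g, a defining marker, had 0 to 9 counts per library and was not tested. Of 8 Kupffer cell and macrophage markers, 5 were higher and none lower in NTC, and 3 were higher and 2 lower in sgBap1, with sums of 197 to 615 CPM in vehicle livers and 619 to 1079 CPM after CCl4. Of 6 stellate cell and myofibroblast markers, 5 were higher in NTC and 4 in sgBap1, with sums of 83.5 to 115 CPM and 231 to 662 CPM. The 662 CPM came from sgBap1-CCl4 replicate 2, the library with fat cell genes, and the next highest sum was 347 CPM. None of 5 T and NK cell markers passed in either genotype (edgeR), with sums of 1.39 to 5.27 CPM in vehicle livers and 2.72 to 5.10 CPM after CCl4. Of 4 B cell markers, 3 were higher in NTC and 0 in sgBap1, and their sums of 3.46 to 9.88 CPM and 7.62 to 11.5 CPM overlapped. The sums of 4 bile duct cell markers also lay apart, at 4.46 to 7.81 CPM and 11.9 to 17.8 CPM, with 1 called higher in each genotype. So did those of 5 fat cell markers, at 0.565 to 2.21 CPM and 8.14 to 145 CPM, of which 1 was tested. Endothelial and mesothelial sums overlapped. The part of these cells in the cytokine values was not tested. In whole liver RNA, fewer cells of a type and less RNA per cell cannot be told apart.

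The receptors moved in different directions. Osmr, the receptor chain of oncostatin M, was the ligand-binding receptor that rose. Its CPM was 3.02 and 3.80 in NTC-Veh, 4.28 and 4.49 in sgBap1-Veh, 17.8, 15.2 and 25.4 in NTC-CCl4, and 22.6, 28.1 and 19.5 in sgBap1-CCl4. The lowest CCl4 liver was above the highest vehicle liver. Osmr rose by 2.51 on the log2 scale (SE 0.25, adjusted p = 2.73e-05, edgeR) in NTC, a 5.69-fold difference, and by 2.42 (SE 0.25, adjusted p = 2.99e-05) in sgBap1, a 5.34-fold difference.

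Lifr, the receptor chain of LIF, fell in both genotypes. Its CPM was 638 and 522 in NTC-Veh, 485 and 481 in sgBap1-Veh, 208, 167 and 209 in NTC-CCl4, and 200, 159 and 193 in sgBap1-CCl4. All CCl4 livers were below all vehicle livers. On the log2 scale the change of Lifr was -1.57 (SE 0.14, adjusted p = 1.24e-05, edgeR) in NTC and -1.39 (SE 0.14, adjusted p = 2.42e-05) in sgBap1. Osmr and Lifr lie on chromosome 15 with 215644 bases and 1 non-coding gene between them, and their transcripts moved in opposite directions. The summed hepatocyte markers were also lower after CCl4, with 6 of 7 markers lower in NTC and 3 of 7 in sgBap1 (26.6% and 28% of all tested genes). The part of the hepatocyte markers in the Lifr values was not tested.

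Il6ra, the receptor that lets a cell bind IL-6 directly, fell in NTC livers. Its CPM was 85.6 and 66.6 in NTC-Veh and 31.5, 35.5 and 37.0 in NTC-CCl4, with no overlap and a log2 difference of -1.13 (SE 0.18, adjusted p = 0.000533, edgeR). In sgBap1 livers the values were 51.4 and 82.3 CPM with vehicle and 57.6, 49.97 and 58.0 CPM after CCl4, which overlapped. Here the change of Il6ra was -0.27 (SE 0.18, adjusted p = 0.227). It was -0.57 (adjusted p = 0.0155) without sgBap1-Veh replicate 1, the lower vehicle liver, 0.10 (adjusted p = 0.631) without replicate 2, and 0.21 (adjusted p = 0.287) with library size alone in place of TMM. The difference between the genotypes' CCl4 changes was 0.86 (95% interval 0.27 to 1.44, adjusted p = 0.255), so the genotypes were not shown to differ.

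Il6st encodes gp130, without which none of these cytokines signals. Its CPM was 181 and 170 in NTC-Veh, 176 and 156 in sgBap1-Veh, 315, 255 and 336 in NTC-CCl4, and 306, 304 and 293 in sgBap1-CCl4. Every CCl4 liver was above every vehicle liver. Il6st rose by 0.78 on the log2 scale (SE 0.13, adjusted p = 0.000461, edgeR) in NTC and by 0.86 (SE 0.13, adjusted p = 0.000244) in sgBap1, a smaller change than that of Osmr.

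Stat3, the transcription factor downstream of gp130, was higher after CCl4 in sgBap1 livers and did not pass in NTC livers. Its CPM was 187 and 131 in NTC-Veh and 173, 180 and 220 in NTC-CCl4, which overlapped, and 155 and 142 in sgBap1-Veh and 221, 188 and 214 in sgBap1-CCl4, which did not. The log2 difference of Stat3 was 0.26 (SE 0.16, adjusted p = 0.190, edgeR) in NTC and 0.48 (SE 0.16, adjusted p = 0.0256) in sgBap1, and the difference between these changes was 0.22 (95% interval -0.28 to 0.72, adjusted p = 0.810). The NTC call came with library size alone in place of TMM (0.75, adjusted p = 0.00116) or without NTC-Veh replicate 1 (0.54, adjusted p = 0.0294). Without NTC-Veh replicate 2 the NTC value of Stat3 was 0.03. The sgBap1 call was lost without sgBap1-Veh replicate 1 (adjusted p = 0.0670) or 2 (0.142) and without sgBap1-CCl4 replicate 1 (0.0699) or 3 (0.0594). Stat3 overlaps Stat5a on the other strand. RNA levels do not show phosphorylated STAT3, which was not measured here.

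Socs3, the inhibitor that STAT3 induces, rose in both genotypes. Its CPM was 12.2 and 7.93 in NTC-Veh, 7.97 and 5.31 in sgBap1-Veh, 30.5, 25.3 and 42.9 in NTC-CCl4, and 35.1, 32.9 and 29.8 in sgBap1-CCl4. The lowest CCl4 liver was above the highest vehicle liver. Socs3 rose by 1.71 on the log2 scale (SE 0.27, adjusted p = 0.000606, edgeR) in NTC and 2.29 (SE 0.28, adjusted p = 0.000123) in sgBap1. These were 3.27-fold and 4.88-fold differences, and the difference between the genotypes' changes was 0.58 (95% interval -0.25 to 1.41, adjusted p = 0.656).

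**Figure D2:**
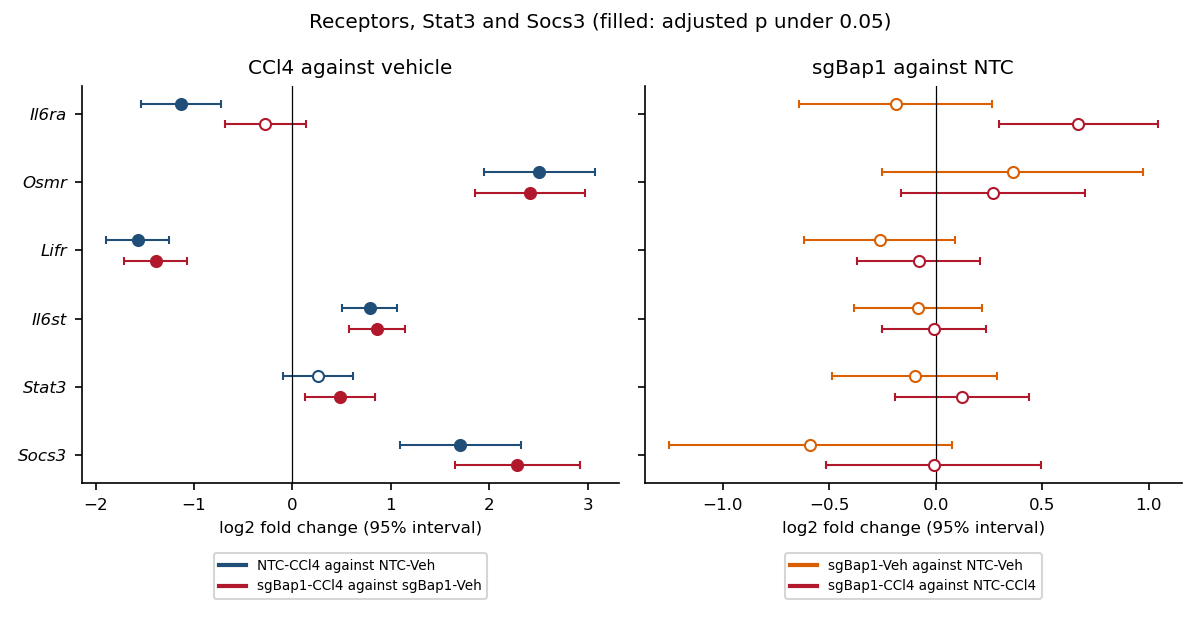
Log2 fold changes (horizontal axis) of the receptors, Stat3 and Socs3, with 95% intervals from the edgeR fit, for CCl4 against vehicle in each genotype (left) and sgBap1 against NTC in each treatment (right), filled where adjusted p is under 0.05. Osmr, Il6st and Socs3 lie above 0 and Lifr below 0 in both genotypes, and no genotype value is filled.

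Ratios of counts within a library do not depend on how libraries are scaled, and 4 were compared between treatments. The mean log2 ratio of Osmr to Lifr with vehicle was -7.40 ± 0.44 (SD, n = 2) in NTC and -6.77 ± 0.06 (n = 2) in sgBap1, and after CCl4 it was -3.35 ± 0.27 (n = 3) in NTC and -2.98 ± 0.43 (n = 3) in sgBap1. The ratio was higher in 6 of 6 CCl4 livers than in any vehicle liver, by 3.92 on the log2 scale, or 15.1-fold. Osmr rose 8.67-fold relative to Il6ra and 3.06-fold relative to Il6st, and Socs3 rose 3.10-fold relative to Stat3. Each of the 4 ratios had p = 0.01 in a two-sided exact permutation test of treatment within genotype, the smallest value that its 100 arrangements allow, and adjusted p = 0.01 over the 4.

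**Figure D3:**
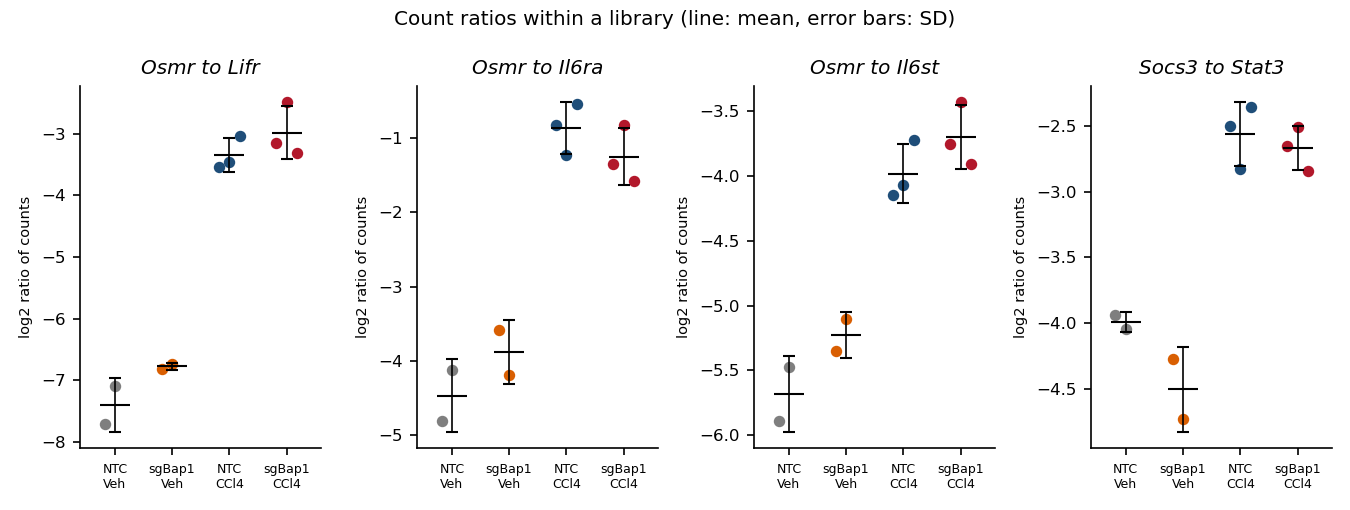
Log2 ratios of counts plus 1 within each library (vertical axis, a different range in each panel) for Osmr to Lifr, Il6ra and Il6st and for Socs3 to Stat3, with points for livers, lines for group means and error bars for SD. In each panel all 6 CCl4 livers lie above all 4 vehicle livers.

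The order of the members' levels also changed. Per kilobase of the longest coding transcript, the mean level in NTC-Veh livers was 60.1 ± 8.48 (SD, n = 2) CPM per kb for Lifr, 26.3 ± 6.502 for Stat3, 20.2 ± 0.855 for Il6st, 8.81 ± 1.56 for Il6ra, 3.94 ± 1.18 for Socs3 and 0.621 ± 0.0997 for Osmr. The levels of Il6, Lif and Osm were 0.0350, 0.0307 and 0.0121 CPM per kb. Stat3 and Il6st differed by less than the SD of Stat3. In NTC-CCl4 livers Il6st led with 34.8 ± 4.84 (n = 3) CPM per kb, followed by Stat3 at 31.6 ± 4.17, Lifr at 20.2 ± 2.45, Socs3 at 12.9 ± 3.54, Il6ra at 4.02 ± 0.330 and Osmr at 3.54 ± 0.971. The ranges of Il6st and Stat3 overlapped there, as did those of Il6ra and Osmr. Lif stood at 0.385, Osm at 0.282 and Il6 at 0.111 CPM per kb.

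The genotype comparison asks whether Bap1 depletion in hepatocytes changed the pathway by itself or its response to CCl4. No member of 9 passed in sgBap1-Veh against NTC-Veh (0.406% of all tested genes passed, edgeR), in sgBap1-CCl4 against NTC-CCl4 (0.329%), in the interaction (0%) or in the average over treatments (0.411%). In CCl4 livers 0.2% of all tested genes passed as higher in sgBap1. Between vehicle groups 4 members did not overlap (40.9% of all tested genes), with Osmr higher in sgBap1 and Il6, Lif and Lifr lower. Il6 and Lif were at the limit of counting there. Il6 had 5 and 1 counts in NTC-Veh and 1 and 0 in sgBap1-Veh, and Lif had 5 and 4 against 3 and 2. At an unadjusted p under 0.05 the numbers of members were 0, 2 (Osm and Il6ra), 1 (Il6ra) and 0, where 12.3%, 14%, 10.4% and 15.8% of all tested genes were under it. DESeq2 called 1 member, Il6ra, in the CCl4 livers and 0 in the others, where it called 2.95% of all tested genes in the CCl4 livers, 3.3% in vehicle livers, 2.47% in the interaction and 4.16% in the average. Between vehicle groups the summed Kupffer cell and macrophage markers were at 197 to 313 CPM in NTC and 409 to 615 CPM in sgBap1, with 1 of 8 markers called. The sums of monocyte, T and NK cell and B cell markers also lay higher in sgBap1-Veh, with 0 markers called. Hepatocyte sums lay lower in sgBap1-Veh, with 0 called, and those of the other cell types overlapped.

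Il6ra was the only member that did not overlap between genotypes in CCl4 livers. The sgBap1-CCl4 livers, at 49.97 to 58.0 CPM, all lay above the NTC-CCl4 livers, at 31.5 to 37.0 CPM, while 20.3% of all tested genes had no overlap in this comparison. The log2 fold change of Il6ra was 0.67 (SE 0.17, 95% interval 0.30 to 1.04, adjusted p = 0.123, edgeR). DESeq2 gave adjusted p = 0.0116, the other alternatives reached up to 0.201, and leaving out each library in turn gave 0.0615 to 0.438. Gm42809 overlaps Il6ra on the other strand.

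For the other members the intervals bound what these livers could show. In vehicle livers the log2 difference, sgBap1 against NTC, was 0.36 (95% interval -0.25 to 0.97) for Osmr, -0.26 (-0.62 to 0.09) for Lifr, -0.08 (-0.38 to 0.22) for Il6st, -0.10 (-0.49 to 0.29) for Stat3 and -0.59 (-1.25 to 0.08) for Socs3. In CCl4 livers it was 0.27 (-0.16 to 0.70) for Osmr, -0.08 (-0.37 to 0.21) for Lifr, -0.01 (-0.25 to 0.24) for Il6st, 0.12 (-0.19 to 0.44) for Stat3 and -0.01 (-0.51 to 0.49) for Socs3. Il6st was the most narrowly bounded of these in CCl4 livers. On summed counts of CCl4 livers the ratio of sgBap1 to NTC was 1.52 (95% counting interval 1.17 to 1.99) for Osm, 1.48 (1.25 to 1.76) for Lif and 0.603 (0.346 to 1.04) for Il6. These count intervals leave out the spread between livers, and in the test across livers adjusted p was 0.354 for Osm, 0.394 for Lif and 0.604 for Il6 (edgeR).

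Relatives of the family that also signal through gp130 or a gp130-like chain moved in both directions after CCl4. Of 12 listed genes 11 were tested, of which 6 were higher and 2 lower in NTC, and 5 higher and 3 lower in sgBap1 (edgeR), where 53.9% and 57% of all tested genes passed. The number passing fell from 8 to 5 in NTC without NTC-Veh replicate 1 and from 8 to 5 in sgBap1 without sgBap1-Veh replicate 1.

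Clcf1, a cytokine of this family, rose from 1.44 to 2.56 CPM in NTC-Veh to 10.1 to 10.9 CPM in NTC-CCl4, a log2 difference of 2.40 (SE 0.22, adjusted p = 1.32e-05, edgeR), and by 1.90 in sgBap1. Il27ra, a receptor chain of IL-27, was higher by 1.10 (adjusted p = 0.0104) in NTC and 0.96 (0.0162) in sgBap1. The NTC value was 1.68 without NTC-Veh replicate 1 and 0.69 (adjusted p = 0.105) without replicate 2, and the sgBap1 call was lost without sgBap1-Veh replicate 2 (adjusted p = 0.102). Ctf1, cardiotrophin 1, was lower by -0.86 (adjusted p = 0.00628) in NTC and -0.92 (0.00547) in sgBap1. The Ctf1 call was lost with library size alone in both genotypes (adjusted p = 0.123 and 0.0844) and in NTC without NTC-Veh replicate 1 (0.0647).

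Il11, another gp130 cytokine, was singled out after its values were seen. It had 3 counts in all in the NTC-Veh libraries and 4 in the sgBap1-Veh libraries, 209 in NTC-CCl4 and 529 in sgBap1-CCl4. Its CPM was 1.09 to 2.19 in NTC-CCl4 and above that range in all 3 sgBap1-CCl4 livers, which reached 3.61. Between these groups 20.3% of all tested genes had no overlap. The log2 fold change of Il11 between these groups was 1.06 (SE 0.27, adjusted p = 0.120, edgeR).

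Of 14 genes of JAK-STAT signalling and its brakes, 6 were higher and 3 lower in NTC, and 5 higher and 2 lower in sgBap1 (edgeR), where 53.9% and 57% of all tested genes passed. Their median log2 fold change was 0.18 in NTC and 0.08 in sgBap1, against 0.03 and 0.04 over all tested genes. With library size alone 11 passed in sgBap1, and 3 passed without sgBap1-Veh replicate 2. Among the kinases, Jak1 rose by 0.41 (adjusted p = 0.00515) in NTC and 0.40 (0.00558) in sgBap1, and Jak2 by 0.74 (0.00231) and 0.64 (0.00508).

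Socs2, an inhibitor induced by growth hormone through STAT5, fell while Socs3 rose. The CPM of Socs2 was 136 and 56.5 in NTC-Veh, 27.5 and 50.7 in sgBap1-Veh, 20.4, 8.28 and 22.6 in NTC-CCl4, and 15.9, 12.6 and 13.5 in sgBap1-CCl4. Its log2 fold change was -2.49 (SE 0.50, adjusted p = 0.00377, edgeR) in NTC and -1.48 (SE 0.50, adjusted p = 0.0354) in sgBap1. The sgBap1 call for Socs2 was lost without sgBap1-Veh replicate 2 (-0.97, adjusted p = 0.232), without sgBap1-CCl4 replicate 1 (0.0606), 2 (0.117) or 3 (0.0858), with library size alone (0.106) and without the filter on low counts (0.0959).

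Cish, a related STAT5 target, had a log2 difference of -1.58 (adjusted p = 0.00719, edgeR) in NTC, which became -0.79 (adjusted p = 0.0647) without NTC-Veh replicate 1, and of -0.87 (adjusted p = 0.0805) in sgBap1. The sgBap1 value of Cish passed with DESeq2 (adjusted p = 0.0179), in a fit of the groups compared alone (0.0182) and without NTC-Veh replicate 1 (0.0163) or 2 (0.0170).

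Receptor shedding releases IL6RA from the cell surface, so that soluble receptor can act on cells without their own. Transcripts of all 4 genes listed for it, the proteases Adam10 and Adam17 and the cofactors Rhbdf1 and Rhbdf2, rose in both genotypes (edgeR), and their median log2 fold change was 1.15 in NTC and 1.18 in sgBap1. Of all tested genes, 27.4% were called higher in NTC and 29% in sgBap1. Rhbdf1 and Rhbdf2 rose by 1.41 (SE 0.11, adjusted p = 6.44e-06) and 1.25 (SE 0.15, adjusted p = 8.06e-05) in NTC. Adam10 rose by 1.06 (SE 0.11, adjusted p = 2.11e-05), from 31.01 and 33.4 CPM in NTC-Veh to 70.0, 61.8 and 69.7 CPM in NTC-CCl4. In sgBap1 the changes of Rhbdf1, Rhbdf2 and Adam10 were 1.52, 1.28 and 1.08.

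Genes that IL-6 and STAT3 are known to induce in the liver did not move as a block. Of 29 listed genes 28 were tested, of which 15 were higher and 2 lower in NTC, and 17 higher and none lower in sgBap1 (edgeR). Of all tested genes, 53.9% passed in NTC and 57% in sgBap1, so the numbers passing in either direction were near the general share. The listed genes that passed were mostly higher. Of all tested genes, 27.4% in NTC and 29% in sgBap1 passed as higher, and 26.6% and 28% as lower. The median log2 fold change of the list was 0.64 in NTC and 0.71 in sgBap1, against 0.03 and 0.04 over all tested genes. Without sgBap1-Veh replicate 1 the number passing in sgBap1 was 10. The genes lower in NTC were Saa1, an acute phase protein of the hepatocyte (-1.59, adjusted p = 0.0387, edgeR), and Cebpb, a transcription factor of the acute phase (-0.83, adjusted p = 0.00679). The 2 NTC-Veh livers lay far apart in Saa1, at 294 and 1016 CPM, against 163 to 265 CPM in NTC-CCl4.

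Timp1, an inhibitor of matrix proteases, was at 0.191 and 0.970 CPM in NTC-Veh and at 21.8, 22.2 and 21.4 CPM in NTC-CCl4, a log2 difference of 5.23 (SE 0.55, adjusted p = 7.81e-05, edgeR), and it also rose in sgBap1 (adjusted p = 0.000154). Lcn2, an iron-binding acute phase protein, rose by 3.37 (SE 0.22, adjusted p = 2.45e-06) in NTC, from 47.2 and 36.1 to 475, 376 and 445 CPM, and by 2.99 in sgBap1. Il1rn, the antagonist of the IL-1 receptor, rose by 3.37 (SE 0.34, adjusted p = 5.53e-05) in NTC and by 3.80 in sgBap1. Stellate, monocyte and neutrophil markers rose in the same livers as Timp1, Lcn2 and Il1rn, and their part in these values was not tested.

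Cebpd, a transcription factor induced by STAT3, was the only gene of the 57 tested in these 4 lists to pass in a comparison of sgBap1 with NTC (edgeR). It passed in CCl4 livers, where 0.329% of all tested genes passed. DESeq2 called 4 response genes in CCl4 livers, 4 in vehicle livers, 5 in the interaction and 1 averaged over treatments. Of all tested genes it called 2.95%, 3.3%, 2.47% and 4.16%, in the same order. In the JAK-STAT list it called 0 to 2 genes per comparison, with Cish (adjusted p = 0.0262) in the average. Without NTC-Veh replicate 1, edgeR also called 1 response gene in vehicle livers. The Cebpd CPM was 5.72 and 4.85 in NTC-Veh, 4.17 and 4.08 in sgBap1-Veh, 4.03, 5.75 and 3.88 in NTC-CCl4, and 9.25, 12.7 and 8.69 in sgBap1-CCl4. All sgBap1-CCl4 livers were above the other 7. Between sgBap1-CCl4 and NTC-CCl4, 20.3% of all tested genes had no overlap. The log2 fold change of Cebpd in sgBap1-CCl4 against NTC-CCl4 was 1.16 (SE 0.19, adjusted p = 0.0392, edgeR). Its CCl4 change was -0.21 (adjusted p = 0.446) in NTC and 1.31 (SE 0.22, adjusted p = 0.000667) in sgBap1, and the difference between these was 1.52 (adjusted p = 0.104; DESeq2 0.00202).

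The genotype call for Cebpd was not stable. It was lost without NTC-Veh replicate 1 (adjusted p = 0.0676) or 2 (0.0668), sgBap1-Veh replicate 1 (0.0615) or 2 (0.0623), NTC-CCl4 replicate 1 (0.216) or 3 (0.109), or sgBap1-CCl4 replicate 1 (0.104) or 2 (0.0804), the library with fat cell genes, while the log2 value of Cebpd stayed between 0.97 and 1.37. It was also lost with the replicate number as a block (0.0552) and with the groups compared alone (0.0961).

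**Figure D4:**
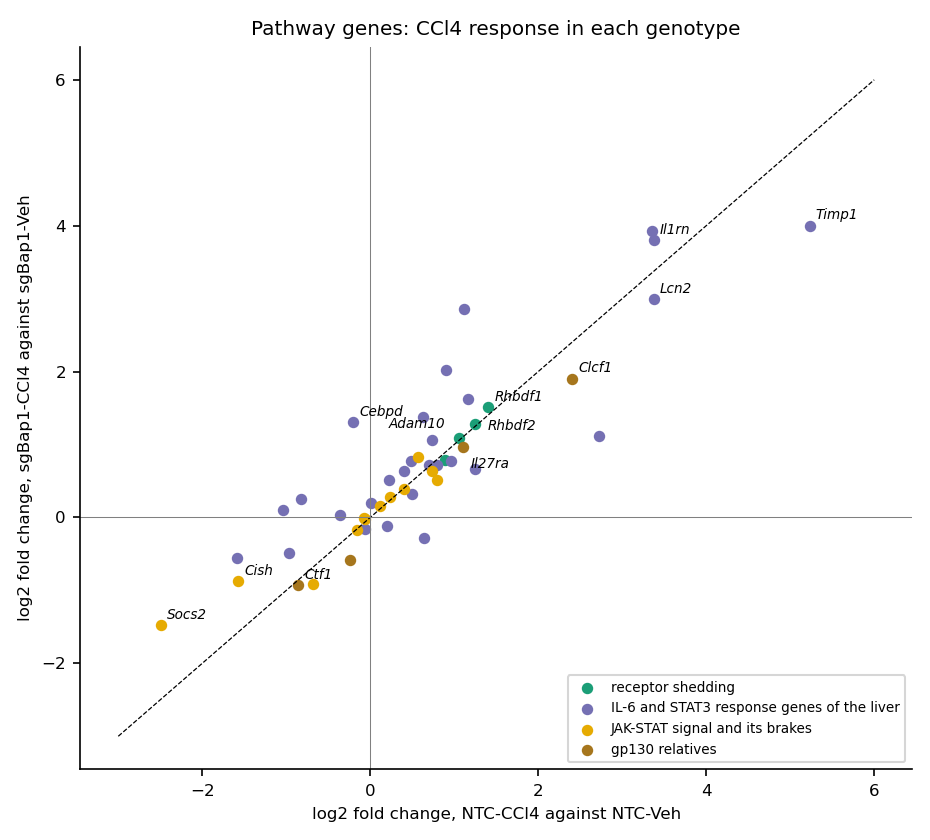
Log2 fold change after CCl4 in NTC (horizontal axis) and in sgBap1 (vertical axis) for 48 tested genes of the 4 pathway lists that averaged 100 counts or more, with the dashed line at equal change. Timp1, Lcn2 and Il1rn lie at the upper right, Socs2 at the lower left, and Cebpd above the line.

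Genes whose pattern was most like that of a member were found by the Pearson correlation of log2 CPM over the 10 livers, among 12022 genes that averaged 100 counts or more. They were E2f4 (0.995) and Ppp4r1 (0.994) for Osmr, Dctn2 (0.979) and Timm29 (0.949) for Il6ra, Jpt2 and Mfap3 (0.991 each) for Il6st, Gon4l (0.934) and Srpr (0.919) for Stat3, and Plk2 (0.992) and Map7d1 (0.989) for Socs3. These values describe the livers, which share treatment groups and libraries, and carry no test.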

How the data were processed

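RNA from the right lobe of 10 livers was sequenced by the authors from stranded mRNA libraries with paired reads of 50 bases. Per the labels and the study's methods, reads were aligned to GRCm38 with STAR 2.7.6a and quantified with Salmon 1.4.0 on GENCODE vM25, and the deposited table holds estimated counts (expected counts) per gene, not normalized. Of these values, 9.22% were not whole. Whether counting used strand is not given in the sources used here.

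Rounded counts were fitted with edgeR 4.0.16 (R 4.3.3): filterByExpr, TMM, and a robust quasi-likelihood fit of all 10 livers by group, two-sided, with Benjamini-Hochberg adjustment over 17015 genes and a threshold of 0.05. CPM use TMM-scaled library sizes. Ratios within a library used counts plus 1. Counting intervals are exact at 95% and cover counting error only.

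The members, lists and motifs were chosen with earlier results of these data known. Named genes are the members, Bap1, list genes called for genotype, per list the 3 with the largest called change in NTC (mean of at least 100 counts), and the 2 genes most like each of 5 members. Jak1, Jak2, Saa1, Cebpb and Il11 were added after their values were seen. A gene that this rule names is not reported here. Gene positions, overlaps and lengths come from GENCODE vM21 (GRCm38) and promoters from RefSeq. Alternatives were DESeq2 1.42.0 (its size factors and its Wald test), library size alone, 2 other filters on low counts, a replicate block, limma-voom (limma 3.58.1), the quasi-likelihood method of edgeR 3, the groups compared alone, and each library left out.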

Additional observations from a re-analysis of the deposited data

How the results depend on the processing

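The numbers of members called after CCl4 stayed at 7 to 8 in NTC and 6 to 7 in sgBap1 when each library was left out, and at 0 in every genotype comparison. A lone vehicle library left in a group is assumed to vary like the other groups. DESeq2 called 1 member, Il6ra, in sgBap1-CCl4 against NTC-CCl4, where edgeR called 0. With library size alone in place of TMM the median over all genes of the log2 change after CCl4 moved to 0.50 in NTC and 0.52 in sgBap1, with 10561 genes called in NTC and 8500 of them higher, against 9178 and 4659. For genotype the counts of called genes depended on the tool: DESeq2 called 562 in vehicle livers, 502 in CCl4 livers, 420 in the interaction and 707 averaged over treatments, where edgeR called 69, 56, 0 and 70. The replicate numbers did not pair the livers: of 13 correlations between same-numbered livers 2 were above 0.1 and the range was -0.149 to 0.102. With the replicate block the counts were 1, 24, 0 and 9, and the Cebpd call was lost. In the paired test of the within-library ratios the log2 differences were 3.92 for Osmr to Lifr, 3.12 for Osmr to Il6ra, 1.60 for Osmr to Il6st and 1.62 for Socs3 to Stat3, each with adjusted p = 0.125, the smallest value that test can give with 4 pairs. Leaving out each library gave 3.77 to 4.07, 2.94 to 3.29, 1.51 to 1.72 and 1.52 to 1.75 for the 4 ratios. The cause of these shifts was not tested. Depth limited Il6, Osm and Lif, which had 0 to 5 counts in vehicle libraries.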
